A study of Homo sapiens with 21 samples.

Results

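The genes described here are a module of 53 listed ribosome biogenesis and nucleolar factors. Most are proteins that make, modify and fold ribosomal RNA and build ribosomal subunits around it. The list also holds ODC1, an enzyme that makes a polyamine, and PUS7, an enzyme that modifies transfer and messenger RNA. The members are a list of gene names, and no cut-off on a measured value was used to select them, although earlier results of these data were known when the list was made. A member was measured where the array annotation gave a probe set, the group of short probes that reads 1 transcript, to its symbol alone, and the probe set with the highest mean log2 intensity over all arrays stood for the gene. That gave 47 of the 53 members, among 12165 genes tested in all. NOP58, NOB1, EBNA1BP2, GNL3, LYAR and DDX18 were not represented in the annotation used and are not analysed here.

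RNA came from 3 human acute myeloid leukaemia lines, each infected with 1 of 3 short hairpin RNAs, shSYK_1, shSYK_2 or the control shLuc. Both shSYK hairpins target SYK, a cytoplasmic tyrosine kinase that signals below immune receptors and integrins, and shLuc targets luciferase, which human cells lack. The lines are MOLM-14 and U937, both monocytic, and HL-60, which is promyelocytic. Every line had 2 shSYK_1 arrays, 2 shSYK_2 arrays and 3 shLuc arrays, 21 Affymetrix HT U133A arrays in all, and per the labels each replicate was transduced on its own. All groups, shLuc included, were put under puromycin (1 µg/ml) from 48 h after infection, and RNA was taken on day 5, so each array reads the bulk RNA of cells that survived selection. In bulk RNA, fewer cells with a given transcript and less of it per cell cannot be told apart. The 2 hairpins bind different stretches of SYK messenger RNA, a gene on chromosome 9, and their target sequences are shown because the results below differ between them.
shSYK_1 target: gcagcagaacagacatgtcaa
shSYK_2 target: gcaggccatcatcagtcagaa

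Ribosomes are built in the nucleolus, where RNA polymerase I copies ribosomal DNA into a long precursor RNA. Small nucleolar ribonucleoproteins (snoRNPs) modify that RNA, the small subunit processome and later factors fold and trim the part that becomes the small subunit, and a separate set of factors builds the large subunit. MYC, a growth-promoting transcription factor, is a well known activator of many of these genes in leukaemia and other cancers, and its change is given with those of the module.

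The median intensity of the arrays lay between 18.4 and 20.6, and the number of arrays limits the precision. The labels of 1 array conflict: the title and treatment of HL-60 shSYK_2 replicate 1 say shSYK_2, and its source name says shSYK_1. It was kept as shSYK_2. Its upper quartile of 122.3 lay apart from the 134.49 to 139.77 of the other arrays. The main counts for HL-60 shSYK_2 and for the averages that include it are therefore given with and without it. Without it no member's averaged shSYK_2 change moved by more than 0.07 log2 and no HL-60 change by more than 0.22 (TBL3 in both). The averaged shSYK_2 calls against shLuc that changed are named, as are the HL-60 falls that held. Other calls that changed are not all named. The single remaining array was assumed to vary like those of the other groups. Of 10 measured myeloid marker genes, 7 lay above the median gene, led by CEBPA at a mean log2 intensity of 10.51. The erythroid, megakaryocyte, B cell, T and NK cell, and epithelial and stromal markers had median log2 intensities between 3.23 and 3.67, against shLuc medians of 5.14, 5.19 and 4.94 for all genes in MOLM-14, U937 and HL-60. NKG7 (8.33) and PECAM1 (8.60) were the brightest markers of other cell types, and RMA gives no detection call.

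SYK RNA was low with both hairpins in every line, lower with shSYK_2, whereas MYC fell mainly with shSYK_1. The SYK log2 intensities in MOLM-14 were 6.16 and 6.16 with shSYK_1, 5.62 and 5.35 with shSYK_2, and 8.49, 8.42 and 8.44 with shLuc. U937 arrays gave SYK log2 intensities of 7.02 and 6.97 with shSYK_1, 6.57 and 6.55 with shSYK_2, and 8.66, 8.70 and 8.70 with shLuc. In HL-60, SYK had log2 intensities of 7.04 and 7.001 with shSYK_1, 6.66 and 6.90 with shSYK_2, and 8.91, 9.05 and 9.004 with shLuc. Every SYK hairpin array lay below every shLuc array of its line. In the order MOLM-14, U937, HL-60, the SYK log2 change was -2.29, -1.68 and -1.97 with shSYK_1 and -2.96, -2.13 and -2.21 with shSYK_2. shSYK_2 minus shSYK_1 averaged -0.45 (SE 0.0517, limma adjusted p = 2.94e-06) and did not pass the test in HL-60 alone (-0.24, limma adjusted p = 0.0716).

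In MOLM-14, MYC had log2 intensities of 11.17 and 11.11 with shSYK_1, 11.88 and 11.95 with shSYK_2, and 12.03, 12.12 and 12.02 with shLuc. The MYC log2 intensities in U937 were 11.61 and 11.65 with shSYK_1, 12.20 and 12.28 with shSYK_2, and 12.39, 12.37 and 12.38 with shLuc. HL-60 arrays gave MYC log2 intensities of 12.02 and 11.92 with shSYK_1, 12.26 and 12.30 with shSYK_2, and 12.93, 12.71 and 12.87 with shLuc. MYC lay below every shLuc array of its line on each of the 6 shSYK_1 arrays and on each shSYK_2 array too, with a small gap for shSYK_2 in MOLM-14 and U937. With shSYK_1 it changed by -0.92 (SE 0.0689, limma adjusted p = 6.07e-08) in MOLM-14, -0.75 (SE 0.0689, limma adjusted p = 1.19e-06) in U937 and -0.87 (SE 0.0689, limma adjusted p = 8.78e-08) in HL-60. Averaged over the lines it fell with shSYK_1 (-0.85, SE 0.0398, limma adjusted p = 6.51e-11) and with shSYK_2 (-0.28, SE 0.0398, limma adjusted p = 4.66e-05, and -0.27 with limma adjusted p = 1.86e-04 without HL-60 shSYK_2 replicate 1). Of the lines taken singly, it fell with shSYK_2 in HL-60 (-0.56, SE 0.0689, limma adjusted p = 2.83e-05, and -0.54 with limma adjusted p = 7.08e-04 without HL-60 shSYK_2 replicate 1), and the changes of -0.14 in MOLM-14 and -0.14 in U937 did not pass (limma adjusted p = 0.201 and 0.218). On the array means of the 47 members, MOLM-14 stood at -0.32 and -0.28 log2 from its shLuc mean with shSYK_1, at 0.07 and 0.08 with shSYK_2, and at 0.01, -0.02 and 0.01 with shLuc. U937 stood at -0.20 and -0.15 with shSYK_1, at -0.11 and -0.11 with shSYK_2, and at -0.01, 0.03 and -0.02 with shLuc. HL-60 stood at -0.46 and -0.48 with shSYK_1, at -0.32 and -0.22 with shSYK_2, and within 0.01 of the mean on its shLuc arrays. The members' mean was thus lowest with shSYK_1 in each line, and with shSYK_2 it lay below shLuc in U937 and HL-60 and above it in MOLM-14.

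**Figure D1:**
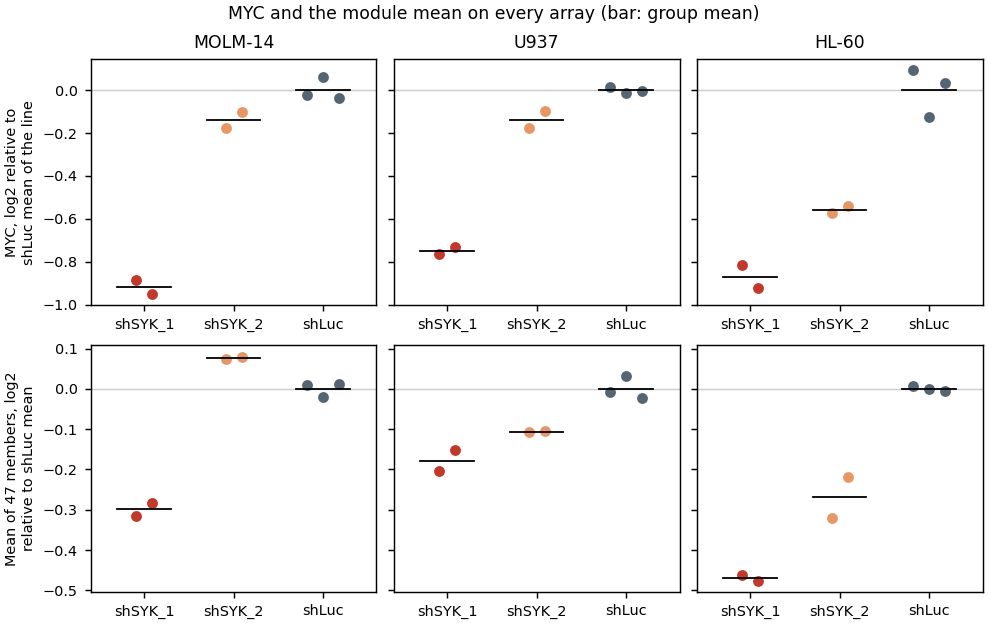
MYC (upper row) and the mean of the 47 members (lower row) on each array, as log2 intensity relative to the shLuc mean of the same line, by cell line and hairpin. Points are arrays and bars are group means, and the vertical scales of the rows differ. MYC and the members' mean are lowest with shSYK_1 in each line, while the 2 MOLM-14 shSYK_2 arrays hold the members' mean above every shLuc array.

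With shSYK_1 the module had a negative median change in each line, largest in HL-60 and smallest in U937. A gene is said to have fallen or risen where its limma adjusted p (Benjamini-Hochberg over all 12165 genes, one fit over all arrays) was below 0.05. In HL-60, 41 of 47 members fell and 0 rose with shSYK_1, against 11.8% of all genes lower and 12.5% higher, and the median change was -0.48 for the members and -0.01 for all genes. In MOLM-14, 31 members fell and 0 rose, against 12.5% lower and 13.0% higher over all genes, with a median of -0.27 for the members and 0.01 for all genes. In U937, 17 fell and 0 rose, against 8.37% lower and 8.53% higher, with medians of -0.17 and -0.0045. The U937 count rested on few arrays: it was 4 (NHP2, UTP20, PUS7 and ODC1, all among the 17) without U937 shSYK_1 replicate 1, 11 without U937 shSYK_1 replicate 2, and 9 without U937 shLuc replicate 2. Averaged over the lines, 40 members fell and 0 rose (17.4% lower and 18.2% higher over all genes). The 7 that did not pass were NPM1, POLR1B, IMP3, TBL3, UTP18, UBTF and GNL2. In 30 of the 47 members every shSYK_1 array lay below every shLuc array of its line in all 3 lines, which held for 7.61% of all genes. The 15 members that fell in each line separately were DKC1, NHP2, NOLC1, WDR43, PWP2, UTP20, WDR12, NOP16, MRTO4, NIP7, MYBBP1A, DDX21, RRP1B, PUS7 and ODC1, and 3.47% of all genes did so. At an unadjusted p below 0.05, 35 MOLM-14, 27 U937 and 43 HL-60 member changes with shSYK_1 were lower, and 0 were higher in any line or in the average. The share of all genes at an unadjusted p was not counted, here or below, so these counts have no background. The change was negative in all 3 lines in 39 members (22.1% of all genes). The size of the shSYK_1 effect differed between lines in 12 (15.2% of all genes), and in 3 with a replicate block.

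With shSYK_2, the hairpin that left less SYK RNA, the module's median change was positive in MOLM-14 and negative in U937 and HL-60. By limma's moderated F test the effect differed between lines in 20 members (15.0% of all genes). That count depended on the processing and was 4 with a replicate block. It was also smaller with HL-60 shSYK_2 replicate 1 left out or placed in shSYK_1. The share over all genes was not counted in those fits. In MOLM-14 only UTP20 and NIP7 fell and 10 members rose (UTP18, IMP3, IMP4, RRP9, NOP14, EMG1, DDX10, BYSL, WDR12 and GNL2), against 8.12% lower and 8.47% higher over all genes, and the members' median was 0.08, with 0.02 for all genes. In U937, 9 members fell and 0 rose (7.92% lower and 8.32% higher over all genes), with a median of -0.08. These were GAR1, UTP20, BOP1, WDR12, MRTO4, NIP7, TCOF1, PUS7 and ODC1. In HL-60, 27 fell and 0 rose (11.4% lower and 10.0% higher over all genes), with a median of -0.25. Without HL-60 shSYK_2 replicate 1, 14 of these 27 and no further member passed in HL-60, at a median of -0.23, namely NOP56, GAR1, NPM1, WDR43, TBL3, UTP20, TSR1, BOP1, NOP16, NIP7, POLR1C, TCOF1, PUS7 and ODC1. Fewer passed with that array placed in shSYK_1, as its source name has it, and the share of all genes was not counted in either fit. Averaged over the lines, 16 members fell and 3 rose, UTP18, IMP3 and NOP14, against 14.7% lower and 15.6% higher over all genes. Without HL-60 shSYK_2 replicate 1 the averaged counts were 14 and 2: the calls of NHP2, PWP2, MYBBP1A and NOP14 were lost, and NOP16 passed. UTP20 and NIP7 were the only members that fell with shSYK_2 in each line separately (2.03% of all genes did). In NPM1, UTP20, MRTO4, NIP7, PUS7 and ODC1 every shSYK_2 array lay below every shLuc array in all 3 lines, a pattern of 6.05% of all genes, and in 0 members did every shSYK_2 array lie above every shLuc array (5.16% of all genes). The change was negative in all 3 lines in 12 members (18.9% of all genes). At an unadjusted p below 0.05, 1 member was higher in U937 with shSYK_2, UTP14A, and 0 in HL-60. The comparisons of both hairpins use the same shLuc arrays, and 14 members fell in both averages (5.97% of all genes) while 9 had negative values in all 6 of line and hairpin (7.06% of all genes).

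The difference between the hairpins was therefore tested directly. Averaged over the lines, 35 of 47 members were higher with shSYK_2 than with shSYK_1 and 0 were lower, against 17.3% higher and 18.4% lower over all genes, with a median difference of 0.24 for the members and 0.02 for all genes. The count was 36 without HL-60 shSYK_2 replicate 1. At an unadjusted p below 0.05, 1 member was lower, TBL3. MYC was higher with shSYK_2 by 0.57 (SE 0.0436, limma adjusted p = 3.29e-08). In MOLM-14, 37 members were higher and 0 lower (13.2% and 12.8% over all genes), with a median difference of 0.38 beside a MYC difference of 0.78. In HL-60, 21 were higher and 2 lower, NPM1 and NIP7 (9.59% and 12.6% over all genes). The median there was 0.23 beside a MYC difference of 0.31 (0.26 and 0.33 without HL-60 shSYK_2 replicate 1). The NPM1 and NIP7 differences of -0.17 and -0.26 were close to the cut-off (limma adjusted p = 0.0448 and 0.0495). Without that array they were -0.185 and -0.13, and the calls did not hold. Without HL-60 shSYK_2 replicate 1, 20 were higher in HL-60 and 18 of these were among the 21, and with that array placed in shSYK_1 only 1 was. In U937, 7 were higher (HEATR1, WDR43, NOP14, UTP14A, DDX10, PNO1 and DDX21) and 3 lower (UTP20, TCOF1 and UBTF), against 11.9% and 11.1% over all genes, with a median of 0.09 beside a MYC difference of 0.61. The U937 count was 1 without U937 shSYK_1 replicate 1, 2 without U937 shSYK_2 replicate 2 and 4 without U937 shSYK_2 replicate 1. The median module difference was thus largest in MOLM-14, where MYC differed most, yet smallest in U937, where MYC differed by more than in HL-60. In 20 members every shSYK_2 array lay above every shSYK_1 array of its line in all 3 lines, against 7.50% of all genes.

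**Figure D2:**
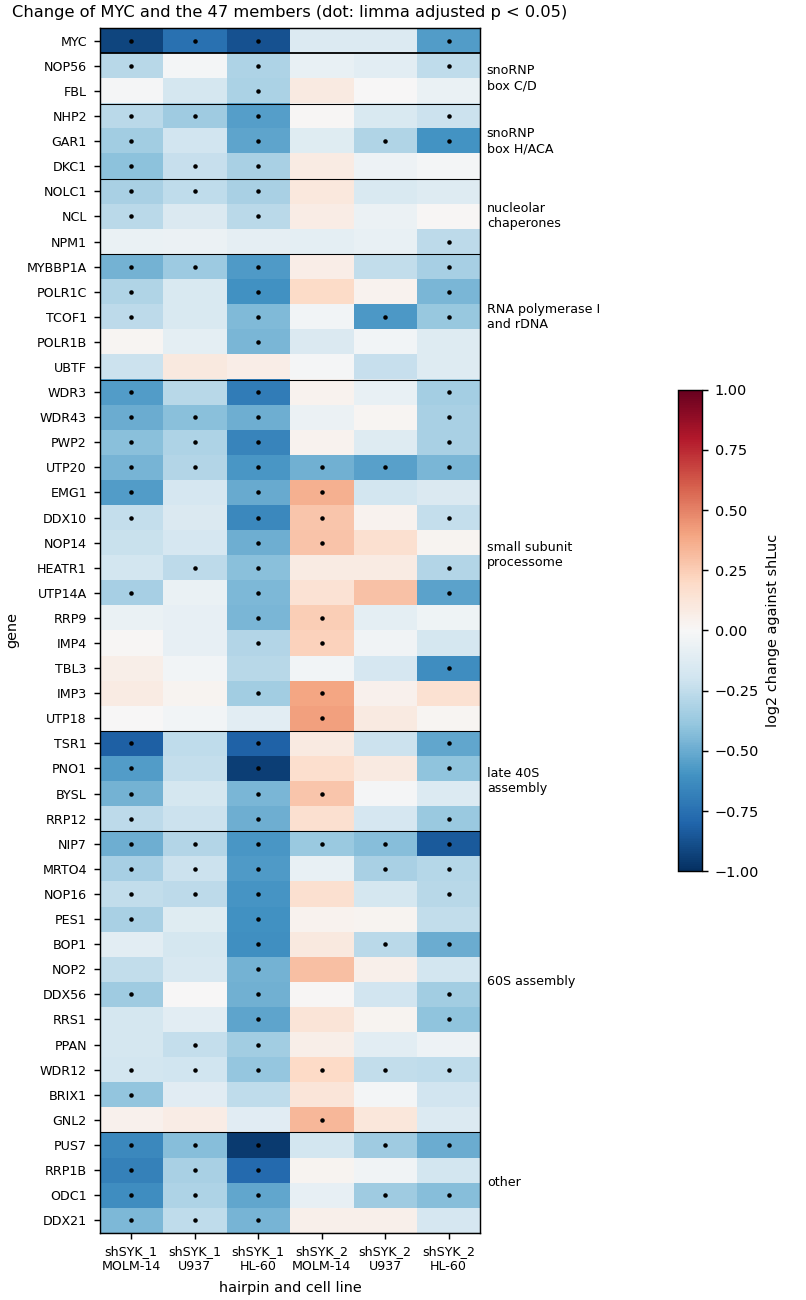
Log2 change of MYC and of the 47 members against shLuc for each hairpin and line, as colour (blue lower, red higher), with members ordered by role. Dots mark a limma adjusted p below 0.05. The 3 shSYK_1 columns hold no member that rose. The shSYK_2 MOLM-14 column holds 10 that rose (8.47% of all genes), 7 of them in the small subunit processome.

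**Figure D3:**
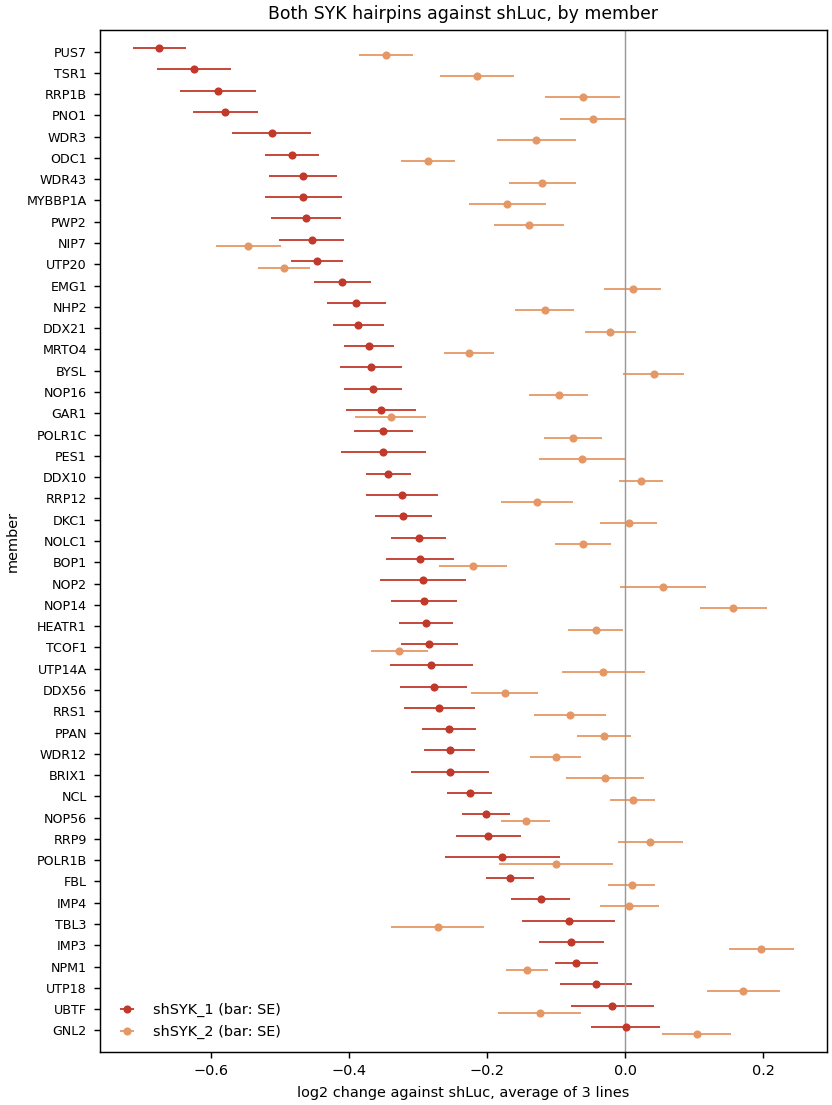
Log2 change of each member averaged over the 3 lines, for shSYK_1 and shSYK_2 against shLuc, with the standard error of the limma fit as bars, sorted by the shSYK_1 change. The shSYK_1 points run from -0.67 (PUS7) to 0.0008 (GNL2), and the shSYK_2 points from -0.55 (NIP7) to 0.20 (IMP3).

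The promoters of several members hold the sequence CACGTG, which reads the same on both strands and is known as the E-box that MYC binds with its partner MAX. RefSeq promoter windows (GRCh38.p14, 250 bases before to 50 after a gene start) were matched for 41 of the 47 measured members, not for NOLC1, RRP12, BOP1, RRS1, TCOF1 and RRP1B, and a gene with several starts was counted once. CACGTG stood in a window of 20 of the 41 members (48.8%), against 1153 of 9711 tested genes with a window (11.9%) and 2396 of 27305 genes in the whole table (8.78%). Of the 23 CACGTG matches in members, 16 lay after the gene start (69.6%), against 10.4% of the matches over all tested genes. The median shSYK_1 change averaged over the lines was -0.36 in the 20 members with CACGTG and -0.28 in the 21 without, and the median hairpin difference was 0.27 and 0.24. A match is a description of the sequence and no measure of binding. The windows below are those of the members with the strongest test of the hairpin difference that hold the motif, cut around it and written along the gene, with CACGTG in capitals. It starts at base 10 after the gene start in PNO1, 31 bases before the start in DDX21, and at bases 16 and 29 after the start in NOP14 and BYSL.
PNO1, chr2:68157885-68157914, plus strand: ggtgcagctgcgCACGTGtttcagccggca
DDX21, chr10:68956547-68956646, plus strand: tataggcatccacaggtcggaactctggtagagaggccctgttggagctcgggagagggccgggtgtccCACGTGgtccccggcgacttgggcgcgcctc
NOP14, chr4:2963374-2963403, minus strand: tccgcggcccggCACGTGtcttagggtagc
BYSL, chr6:41921515-41921544, plus strand: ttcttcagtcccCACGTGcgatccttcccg

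The snoRNP proteins NOP56 and FBL, which sit on box C/D RNAs and methylate ribose in ribosomal RNA through the fibrillarin enzyme FBL, both fell with shSYK_1 on average, by small amounts. In MOLM-14, NOP56 had log2 intensities of 10.58 and 10.61 with shSYK_1, 10.77 and 10.82 with shSYK_2, and 10.85, 10.81 and 10.95 with shLuc. The NOP56 log2 intensities in U937 were 10.74 and 10.83 with shSYK_1, 10.71 and 10.69 with shSYK_2, and 10.80, 10.82 and 10.81 with shLuc. HL-60 arrays gave NOP56 log2 intensities of 10.79 and 10.82 with shSYK_1, 10.87 and 10.87 with shSYK_2, and 11.06, 11.11 and 11.18 with shLuc. NOP56 lay lower with either hairpin in MOLM-14 and HL-60, with 1 shSYK_2 array of MOLM-14 among the shLuc arrays, and in U937 shSYK_2 lay below shLuc while the shSYK_1 arrays straddled it. It fell with both hairpins on average, with changes of -0.20 (SE 0.035, limma adjusted p = 2.01e-04) with shSYK_1 and -0.14 (SE 0.035, limma adjusted p = 0.00456) with shSYK_2, the shSYK_2 call was lost with a replicate block (-0.12, limma adjusted p = 0.0785), and the hairpin difference of 0.06 did not pass (limma adjusted p = 0.277). The FBL log2 intensities in MOLM-14 were 11.35 and 11.37 with shSYK_1, 11.47 and 11.45 with shSYK_2, and 11.39, 11.41 and 11.32 with shLuc. U937 arrays gave FBL log2 intensities of 11.32 and 11.30 with shSYK_1, 11.54 and 11.44 with shSYK_2, and 11.47, 11.55 and 11.43 with shLuc. In HL-60, FBL had log2 intensities of 11.20 and 11.21 with shSYK_1, 11.42 and 11.49 with shSYK_2, and 11.55, 11.48 and 11.54 with shLuc. FBL was lower on the shSYK_1 arrays in U937 and HL-60 and overlapped shLuc in MOLM-14, where the shSYK_2 arrays were just above shLuc. Averaged, it changed by -0.17 (SE 0.0344, limma adjusted p = 9.36e-04) with shSYK_1 and 0.01 with shSYK_2 (limma adjusted p = 0.877), and it was higher with shSYK_2 than with shSYK_1 by 0.18 (SE 0.0377, limma adjusted p = 0.00134).

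The box H/ACA proteins, which turn uridines of ribosomal RNA into pseudouridine, fell as a group with shSYK_1. All 3 fell on average with shSYK_1, 2 fell with shSYK_2 and 2 were higher with shSYK_2 than with shSYK_1. Over all genes these shares were 17.4%, 14.7% and 17.3%. MOLM-14 arrays gave DKC1 log2 intensities of 10.13 and 10.35 with shSYK_1, 10.71 and 10.77 with shSYK_2, and 10.66, 10.62 and 10.69 with shLuc. In U937, DKC1 had log2 intensities of 11.08 and 11.14 with shSYK_1, 11.24 and 11.34 with shSYK_2, and 11.27, 11.43 and 11.33 with shLuc. The DKC1 log2 intensities in HL-60 were 10.52 and 10.46 with shSYK_1, 10.78 and 10.80 with shSYK_2, and 10.80, 10.84 and 10.78 with shLuc. DKC1, the pseudouridine synthase of the complex, lay below shLuc on every shSYK_1 array and with shSYK_2 it lay just above shLuc in MOLM-14 and overlapped it in U937 and HL-60. It changed by -0.32 (SE 0.041, limma adjusted p = 8.26e-06) with shSYK_1 and 0.0048 with shSYK_2 (limma adjusted p = 0.949), a difference of 0.33 (SE 0.0449, limma adjusted p = 2.02e-05). The mean of its probe sets gave -0.14 with shSYK_2 (limma adjusted p = 9.52e-04). NHP2, a core protein of the complex, fell by 0.39 on the log2 scale with shSYK_1 and by 0.12 with shSYK_2 (limma adjusted p = 1.45e-06 and 0.0473). Its shSYK_2 change was -0.08 when HL-60 shSYK_2 replicate 1 was left out. GAR1, its partner, fell with either hairpin, with changes of -0.35 (SE 0.0511, limma adjusted p = 3.20e-05) with shSYK_1 and -0.34 (SE 0.0511, limma adjusted p = 7.64e-05) with shSYK_2, and the difference was 0.01 (SE 0.056, limma adjusted p = 0.881).

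Among the abundant nucleolar chaperones, NCL (nucleolin) and NOLC1 fell with shSYK_1 while the NPM1 (nucleophosmin) change depended on the probe set. In MOLM-14, NCL had log2 intensities of 11.57 and 11.67 with shSYK_1, 11.99 and 11.92 with shSYK_2, and 11.91, 11.89 and 11.85 with shLuc. The NCL log2 intensities in U937 were 11.31 and 11.32 with shSYK_1, 11.43 and 11.37 with shSYK_2, and 11.46, 11.47 and 11.44 with shLuc. HL-60 arrays gave NCL log2 intensities of 11.57 and 11.61 with shSYK_1, 11.91 and 11.84 with shSYK_2, and 11.86, 11.85 and 11.87 with shLuc. NCL lay below shLuc on every shSYK_1 array and with shSYK_2 it was just above shLuc in MOLM-14, just below it in U937 and on either side of it in HL-60. It changed by -0.23 (SE 0.0326, limma adjusted p = 3.27e-05) with shSYK_1 and 0.01 with shSYK_2 (limma adjusted p = 0.846), with a difference of 0.24 (SE 0.0357, limma adjusted p = 5.40e-05). NOLC1, a scaffold for snoRNPs, changed by -0.30 (SE 0.0401, limma adjusted p = 1.46e-05) with shSYK_1 and -0.06 with shSYK_2, with a difference of 0.24 (SE 0.044, limma adjusted p = 3.62e-04). A dimmer NOLC1 probe set gave a difference of -0.19 (limma adjusted p = 0.0227 over all probe sets), so its hairpin difference depends on the probe set. The NPM1 log2 intensities in MOLM-14 were 12.81 and 12.80 with shSYK_1, 12.79 and 12.77 with shSYK_2, and 12.89, 12.88 and 12.85 with shLuc. U937 arrays gave NPM1 log2 intensities of 12.71 and 12.74 with shSYK_1, 12.74 and 12.68 with shSYK_2, and 12.79, 12.80 and 12.78 with shLuc. In HL-60, NPM1 had log2 intensities of 12.81 and 12.89 with shSYK_1, 12.69 and 12.66 with shSYK_2, and 12.96, 12.90 and 12.95 with shLuc. NPM1 was the brightest member in each line and lay below shLuc on all 12 SYK hairpin arrays, by a narrow gap in every group but HL-60 shSYK_2. It changed by -0.07 with shSYK_1 (limma adjusted p = 0.0885) and fell with shSYK_2, with a change of -0.14 (SE 0.0309, limma adjusted p = 0.00194). The shSYK_1 change passed when its probe sets were averaged (-0.14, limma adjusted p = 0.00103), with the dimmest 40% of genes left out (adjusted p = 0.0285) and with a trended prior (adjusted p = 0.00148), while averaging them lost the shSYK_2 call (-0.04, limma adjusted p = 0.330). The other NPM1 probe sets, both bright, changed by -0.23 and -0.13 with shSYK_1 (limma adjusted p = 4.14e-04 and 0.0244 over all probe sets) and by 0.13 and -0.11 with shSYK_2 (0.0314 and 0.0475), so the order of the hairpins for NPM1 was not settled.

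The small subunit processome, the large particle that folds the first part of the precursor RNA, held 14 members. On average 11 fell with shSYK_1 (17.4% of all genes). With shSYK_2 3 fell (PWP2, TBL3 and UTP20) and 3 rose (UTP18, IMP3 and NOP14), against 14.7% lower and 15.6% higher over all genes. These shSYK_2 counts were not far from those shares. In the difference 12 were higher with shSYK_2 than with shSYK_1 (17.3% of all genes). The averaged PWP2 change with shSYK_2 was -0.14, and -0.08 when HL-60 shSYK_2 replicate 1 was left out. MOLM-14 arrays gave UTP20 log2 intensities of 8.63 and 8.46 with shSYK_1, 8.52 and 8.55 with shSYK_2, and 9.001, 9.01 and 9.03 with shLuc. In U937, UTP20 had log2 intensities of 6.94 and 6.80 with shSYK_1, 6.65 and 6.58 with shSYK_2, and 7.15, 7.22 and 7.10 with shLuc. The UTP20 log2 intensities in HL-60 were 8.19 and 8.15 with shSYK_1, 8.29 and 8.29 with shSYK_2, and 8.73, 8.77 and 8.75 with shLuc. UTP20, a large scaffold protein of the particle, was below every shLuc array of its line with both hairpins, and lowest with shSYK_2 in U937. It fell with both hairpins, with changes of -0.45 (SE 0.0378, limma adjusted p = 7.98e-08) with shSYK_1 and -0.49 (SE 0.0378, limma adjusted p = 5.66e-08) with shSYK_2, and the difference of -0.05 did not pass (SE 0.0414, limma adjusted p = 0.41).

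EMG1 and DDX10 fell with shSYK_1, rose with shSYK_2 in MOLM-14 and were higher with shSYK_2 than with shSYK_1 on average. In MOLM-14, EMG1 had log2 intensities of 8.88 and 9.03 with shSYK_1, 9.92 and 9.82 with shSYK_2, and 9.53, 9.50 and 9.51 with shLuc. The EMG1 log2 intensities in U937 were 8.09 and 8.12 with shSYK_1, 8.01 and 8.17 with shSYK_2, and 8.23, 8.37 and 8.21 with shLuc. HL-60 arrays gave EMG1 log2 intensities of 9.02 and 8.95 with shSYK_1, 9.30 and 9.38 with shSYK_2, and 9.47, 9.49 and 9.51 with shLuc. EMG1, a methyltransferase that modifies the small subunit RNA, lay below shLuc with shSYK_1 in each line and with shSYK_2 above it in MOLM-14 and narrowly below it in U937 and HL-60. On average it fell with shSYK_1, with a change of -0.41 (SE 0.041, limma adjusted p = 5.48e-07), and changed by 0.01 with shSYK_2 (limma adjusted p = 0.882). The MOLM-14 difference of 0.91 (SE 0.0778, limma adjusted p = 2.24e-07) was the largest of any member there. The DDX10 log2 intensities in MOLM-14 were 8.23 and 8.13 with shSYK_1, 8.68 and 8.72 with shSYK_2, and 8.42, 8.39 and 8.46 with shLuc. U937 arrays gave DDX10 log2 intensities of 8.20 and 8.24 with shSYK_1, 8.38 and 8.42 with shSYK_2, and 8.35, 8.38 and 8.37 with shLuc. In HL-60, DDX10 had log2 intensities of 7.87 and 7.92 with shSYK_1, 8.26 and 8.34 with shSYK_2, and 8.54, 8.53 and 8.54 with shLuc. DDX10, an RNA helicase, had shSYK_1 below and shSYK_2 above every shLuc array in MOLM-14, while in HL-60 both hairpins lay below shLuc. Its change was -0.34 (SE 0.0324, limma adjusted p = 2.84e-07) with shSYK_1 and 0.02 with shSYK_2 (limma adjusted p = 0.65), and the difference was 0.37 (SE 0.0355, limma adjusted p = 4.43e-07).

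NOP14, whose promoter motif is shown above, IMP3 and UTP18 were the members called higher with shSYK_2 on average. MOLM-14 arrays gave NOP14 log2 intensities of 7.90 and 8.10 with shSYK_1, 8.52 and 8.48 with shSYK_2, and 8.17, 8.20 and 8.29 with shLuc. In U937, NOP14 had log2 intensities of 7.64 and 7.82 with shSYK_1, 8.06 and 8.05 with shSYK_2, and 7.85, 7.997 and 7.84 with shLuc. The NOP14 log2 intensities in HL-60 were 7.55 and 7.66 with shSYK_1, 8.20 and 8.04 with shSYK_2, and 8.05, 8.15 and 8.08 with shLuc. NOP14 was higher with shSYK_2 than with shLuc in MOLM-14 and U937 and overlapped shLuc in HL-60. It changed by -0.29 (SE 0.0479, limma adjusted p = 1.20e-04) with shSYK_1 and 0.16 (SE 0.0479, limma adjusted p = 0.0201) with shSYK_2, and the second call was lost without HL-60 shSYK_2 replicate 1. In MOLM-14, IMP3 had log2 intensities of 9.07 and 9.28 with shSYK_1, 9.53 and 9.44 with shSYK_2, and 9.05, 9.07 and 9.14 with shLuc. The IMP3 log2 intensities in U937 were 9.33 and 9.34 with shSYK_1, 9.37 and 9.34 with shSYK_2, and 9.34, 9.32 and 9.27 with shLuc. HL-60 arrays gave IMP3 log2 intensities of 8.01 and 8.17 with shSYK_1, 8.61 and 8.55 with shSYK_2, and 8.57, 8.41 and 8.31 with shLuc. IMP3 was high with shSYK_2 in MOLM-14 and low with shSYK_1 in HL-60, and did not separate the groups in U937. It changed by -0.08 with shSYK_1 (limma adjusted p = 0.231) and 0.20 (SE 0.047, limma adjusted p = 0.00409) with shSYK_2. UTP18 rose with shSYK_2 in MOLM-14 (0.41, SE 0.0912, limma adjusted p = 0.00488) and changed by 0.09 in U937 and 0.02 in HL-60. Of the other processome members, WDR3, WDR43 and PWP2 had the largest shSYK_1 falls, -0.51, -0.47 and -0.46 (limma adjusted p = 1.86e-06, 9.43e-07 and 1.64e-06). HEATR1 (-0.29), UTP14A (-0.28), RRP9 (-0.20) and IMP4 (-0.12) fell by less, and TBL3 changed by -0.08 with shSYK_1 (limma adjusted p = 0.411) but fell with shSYK_2 (-0.27, limma adjusted p = 0.00532).

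All 4 factors of late small subunit assembly fell with shSYK_1 on average (17.4% of all genes). All 4 were higher with shSYK_2 than with shSYK_1 (17.3% of all genes). The PNO1 log2 intensities in MOLM-14 were 8.11 and 8.14 with shSYK_1, 8.83 and 8.88 with shSYK_2, and 8.79, 8.59 and 8.68 with shLuc. U937 arrays gave PNO1 log2 intensities of 8.24 and 8.27 with shSYK_1, 8.58 and 8.58 with shSYK_2, and 8.40, 8.58 and 8.49 with shLuc. In HL-60, PNO1 had log2 intensities of 8.01 and 8.07 with shSYK_1, 8.48 and 8.68 with shSYK_2, and 8.88, 8.98 and 9.08 with shLuc. PNO1, an RNA-binding factor near the site where the small subunit RNA is cut free, lay far below shLuc on the shSYK_1 arrays of MOLM-14 and HL-60. With shSYK_2 it was above shLuc in MOLM-14 and below it in HL-60. PNO1 fell with shSYK_1, with a change of -0.58 (SE 0.0471, limma adjusted p = 4.80e-08), changed by -0.05 with shSYK_2 (limma adjusted p = 0.502), and had a hairpin difference of 0.53 (SE 0.0516, limma adjusted p = 4.41e-07). MOLM-14 arrays gave TSR1 log2 intensities of 7.51 and 7.39 with shSYK_1, 8.34 and 8.35 with shSYK_2, and 8.32, 8.19 and 8.28 with shLuc. In U937, TSR1 had log2 intensities of 7.36 and 7.31 with shSYK_1, 7.28 and 7.47 with shSYK_2, and 7.61, 7.59 and 7.55 with shLuc. The TSR1 log2 intensities in HL-60 were 6.52 and 6.61 with shSYK_1, 6.67 and 7.04 with shSYK_2, and 7.30, 7.43 and 7.39 with shLuc. TSR1, a GTPase-like assembly factor, was the member with the largest MOLM-14 fall with shSYK_1, to 56.9% of shLuc. In HL-60 its 2 shSYK_2 arrays lay apart, the lower one being the array with conflicting labels. TSR1 changed by -0.62 (SE 0.0536, limma adjusted p = 9.16e-08) with shSYK_1 and -0.21 (SE 0.0536, limma adjusted p = 0.00563) with shSYK_2, -0.15 without that array (limma adjusted p = 0.0180), and the difference was 0.41 (SE 0.0587, limma adjusted p = 3.03e-05). A TSR1 probe set nearly as bright changed by -0.12 with shSYK_1 (limma adjusted p = 0.300 over all probe sets). Its hairpin difference was -0.05 (0.718). A dimmer TSR1 probe set changed by -0.51 with shSYK_1 (3.31e-06) and 0.03 with shSYK_2 (0.761), with a difference of 0.54 (5.22e-06). The TSR1 changes thus depend on the probe set. BYSL (bystin) and RRP12, a nuclear export factor, fell by 0.37 and 0.32 on the log2 scale with shSYK_1 (limma adjusted p = 4.43e-06 and 9.73e-05), against changes of 0.04 and -0.13 with shSYK_2 that did not pass.

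Of the 12 factors of large subunit assembly, 11 fell with shSYK_1 and 4 with shSYK_2 on average (BOP1, MRTO4, NIP7 and DDX56). In the difference 8 were higher with shSYK_2 than with shSYK_1. The shares over all genes were 17.4%, 14.7% and 17.3%. In MOLM-14, NIP7 had log2 intensities of 8.11 and 8.04 with shSYK_1, 8.19 and 8.18 with shSYK_2, and 8.55, 8.52 and 8.60 with shLuc. The NIP7 log2 intensities in U937 were 7.90 and 8.09 with shSYK_1, 7.88 and 7.85 with shSYK_2, and 8.19, 8.41 and 8.28 with shLuc. HL-60 arrays gave NIP7 log2 intensities of 8.39 and 8.34 with shSYK_1, 7.98 and 8.24 with shSYK_2, and 8.95, 8.93 and 8.96 with shLuc. NIP7, which binds the large subunit precursor, lay below shLuc on every SYK hairpin array and was lowest with shSYK_2 in HL-60. NIP7 changed by -0.45 (SE 0.0475, limma adjusted p = 9.05e-07) with shSYK_1 and -0.55 (SE 0.0475, limma adjusted p = 2.32e-07) with shSYK_2, -0.50 when HL-60 shSYK_2 replicate 1 was left out (limma adjusted p = 6.70e-07), and the difference of -0.09 did not pass (SE 0.052, limma adjusted p = 0.194). MRTO4, a factor resembling a protein of the ribosomal stalk, fell with both hairpins, with changes of -0.37 (SE 0.0361, limma adjusted p = 4.00e-07) with shSYK_1 and -0.23 (SE 0.0361, limma adjusted p = 1.35e-04) with shSYK_2, and less so with shSYK_2 (difference 0.15, SE 0.0396, limma adjusted p = 0.00801). The 3 partners PES1, BOP1 and WDR12, which form 1 complex, each fell with shSYK_1, by 0.35, 0.30 and 0.25 on the log2 scale (limma adjusted p = 2.46e-04, 1.33e-04 and 3.67e-05). With shSYK_2 only BOP1 passed (-0.22, SE 0.0494, limma adjusted p = 0.00249), and a dimmer BOP1 probe set changed by 0.17 (limma adjusted p = 0.0272 over all probe sets), so its direction with shSYK_2 depends on the probe set. PES1 and WDR12 changed by -0.06 and -0.10. NOP2, an RNA methyltransferase, NOP16, DDX56, RRS1, BRIX1 and PPAN fell by 0.25 to 0.37 with shSYK_1. GNL2, a nucleolar GTPase, changed by 0.0008 with shSYK_1 (limma adjusted p = 0.993) and rose with shSYK_2 in MOLM-14 (0.33, SE 0.0868, limma adjusted p = 0.014).

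Of the 5 genes of RNA polymerase I and ribosomal DNA, 3 fell on average with shSYK_1 (POLR1C, TCOF1 and MYBBP1A). With shSYK_2 2 fell (TCOF1 and MYBBP1A). The shares over all genes were 17.4% and 14.7%. The TCOF1 log2 intensities in MOLM-14 were 6.36 and 6.26 with shSYK_1, 6.51 and 6.58 with shSYK_2, and 6.54, 6.61 and 6.57 with shLuc. U937 arrays gave TCOF1 log2 intensities of 6.48 and 6.41 with shSYK_1, 5.99 and 6.06 with shSYK_2, and 6.57, 6.64 and 6.58 with shLuc. In HL-60, TCOF1 had log2 intensities of 6.70 and 6.64 with shSYK_1, 6.60 and 6.85 with shSYK_2, and 7.10, 7.12 and 7.11 with shLuc. TCOF1, the nucleolar protein treacle, lay below shLuc on all 12 SYK hairpin arrays but 1 of MOLM-14 shSYK_2, and was lowest with shSYK_2 in U937. Its change was -0.28 (SE 0.0411, limma adjusted p = 3.30e-05) with shSYK_1 and -0.33 (SE 0.0411, limma adjusted p = 1.25e-05) with shSYK_2. In U937 shSYK_2 minus shSYK_1 was -0.42 (SE 0.0781, limma adjusted p = 7.44e-04), against the direction of most members. POLR1C, a subunit that RNA polymerases I and III share, fell with shSYK_1 (-0.35, SE 0.0426, limma adjusted p = 4.95e-06) and with shSYK_2 it changed by 0.20 in MOLM-14 and 0.04 in U937, against -0.46 in HL-60, where it fell. MYBBP1A, a nucleolar partner of MYB, fell by 0.47 with shSYK_1 and 0.17 with shSYK_2 (limma adjusted p = 4.02e-06 and 0.0281). Its shSYK_2 change was -0.14 when HL-60 shSYK_2 replicate 1 was left out. POLR1B, a catalytic-core subunit, changed by -0.18 and -0.10, and UBTF, which opens ribosomal DNA for transcription, by -0.02 and -0.12, with shSYK_1 and shSYK_2, and neither passed (limma adjusted p = 0.114, 0.403, 0.865 and 0.137).

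The remaining 4 members, PUS7, ODC1, RRP1B and DDX21, fell with shSYK_1 in every line. MOLM-14 arrays gave PUS7 log2 intensities of 8.12 and 8.06 with shSYK_1, 8.61 and 8.48 with shSYK_2, and 8.82, 8.72 and 8.66 with shLuc. In U937, PUS7 had log2 intensities of 8.61 and 8.72 with shSYK_1, 8.71 and 8.76 with shSYK_2, and 9.11, 9.13 and 9.03 with shLuc. The PUS7 log2 intensities in HL-60 were 8.33 and 8.30 with shSYK_1, 8.75 and 8.81 with shSYK_2, and 9.30, 9.26 and 9.26 with shLuc. PUS7, a pseudouridine synthase of transfer and messenger RNA, had the largest shSYK_1 change of the module, with both hairpins below every shLuc array and shSYK_1 the lower one on each array of MOLM-14 and HL-60. It fell to 62.6% of shLuc with shSYK_1 (-0.67, SE 0.0389, limma adjusted p = 7.71e-10) and to 78.7% with shSYK_2 (-0.35, SE 0.0389, limma adjusted p = 3.83e-06). In MOLM-14, ODC1 had log2 intensities of 9.43 and 9.57 with shSYK_1, 10.06 and 10.02 with shSYK_2, and 10.12, 10.07 and 10.18 with shLuc. The ODC1 log2 intensities in U937 were 10.15 and 10.04 with shSYK_1, 10.03 and 10.07 with shSYK_2, and 10.38, 10.48 and 10.36 with shLuc. HL-60 arrays gave ODC1 log2 intensities of 10.30 and 10.33 with shSYK_1, 10.35 and 10.47 with shSYK_2, and 10.85, 10.81 and 10.84 with shLuc. ODC1, ornithine decarboxylase, makes the polyamine putrescine and is a classic MYC target. It lay below shLuc on all 12 SYK hairpin arrays, with a narrow gap for shSYK_2 in MOLM-14. It changed by -0.48 (SE 0.0389, limma adjusted p = 4.28e-08) with shSYK_1 and -0.29 (SE 0.0389, limma adjusted p = 2.77e-05) with shSYK_2.

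RRP1B and DDX21 fell on average with shSYK_1, did not pass with shSYK_2 on all arrays and were higher with shSYK_2 than with shSYK_1. The RRP1B log2 intensities in MOLM-14 were 8.57 and 8.57 with shSYK_1, 9.26 and 9.29 with shSYK_2, and 9.29, 9.17 and 9.27 with shLuc. U937 arrays gave RRP1B log2 intensities of 9.65 and 9.62 with shSYK_1, 9.93 and 9.92 with shSYK_2, and 9.91, 10.04 and 9.92 with shLuc. In HL-60, RRP1B had log2 intensities of 8.73 and 8.65 with shSYK_1, 9.06 and 9.50 with shSYK_2, and 9.43, 9.52 and 9.46 with shLuc. RRP1B, a nucleolar regulator of phosphatase 1, lay below shLuc on every shSYK_1 array, and on shSYK_2 arrays only HL-60 replicate 1 stood clearly below shLuc. It fell with shSYK_1, with a change of -0.59 (SE 0.0545, limma adjusted p = 2.19e-07). The shSYK_2 change was -0.06 (limma adjusted p = 0.435). It was 0.01 when HL-60 shSYK_2 replicate 1 was left out and -0.14 when HL-60 shSYK_2 replicate 2 was left out. The hairpin difference was 0.53 (SE 0.0597, limma adjusted p = 2.50e-06). It was 0.60 without HL-60 shSYK_2 replicate 1 and 0.45 without HL-60 shSYK_2 replicate 2. MOLM-14 arrays gave DDX21 log2 intensities of 11.34 and 11.24 with shSYK_1, 11.77 and 11.81 with shSYK_2, and 11.71, 11.77 and 11.72 with shLuc. In U937, DDX21 had log2 intensities of 10.16 and 10.20 with shSYK_1, 10.38 and 10.59 with shSYK_2, and 10.44, 10.40 and 10.45 with shLuc. The DDX21 log2 intensities in HL-60 were 10.71 and 10.77 with shSYK_1, 11.02 and 11.05 with shSYK_2, and 11.20, 11.21 and 11.20 with shLuc. DDX21, a helicase that couples polymerase I transcription and RNA processing, separated shSYK_1 from shLuc in each line, while shSYK_2 overlapped shLuc in MOLM-14 and U937 and lay below it in HL-60. Its change was -0.39 (SE 0.0371, limma adjusted p = 3.43e-07) with shSYK_1 and -0.02 with shSYK_2 (limma adjusted p = 0.718), and the difference was 0.37 (SE 0.0407, limma adjusted p = 2.08e-06). Across the 47 members, the mean level and the shSYK_1 change had a Spearman rho of 0.0022, as a description over genes measured on the same arrays.

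**Figure D4:**
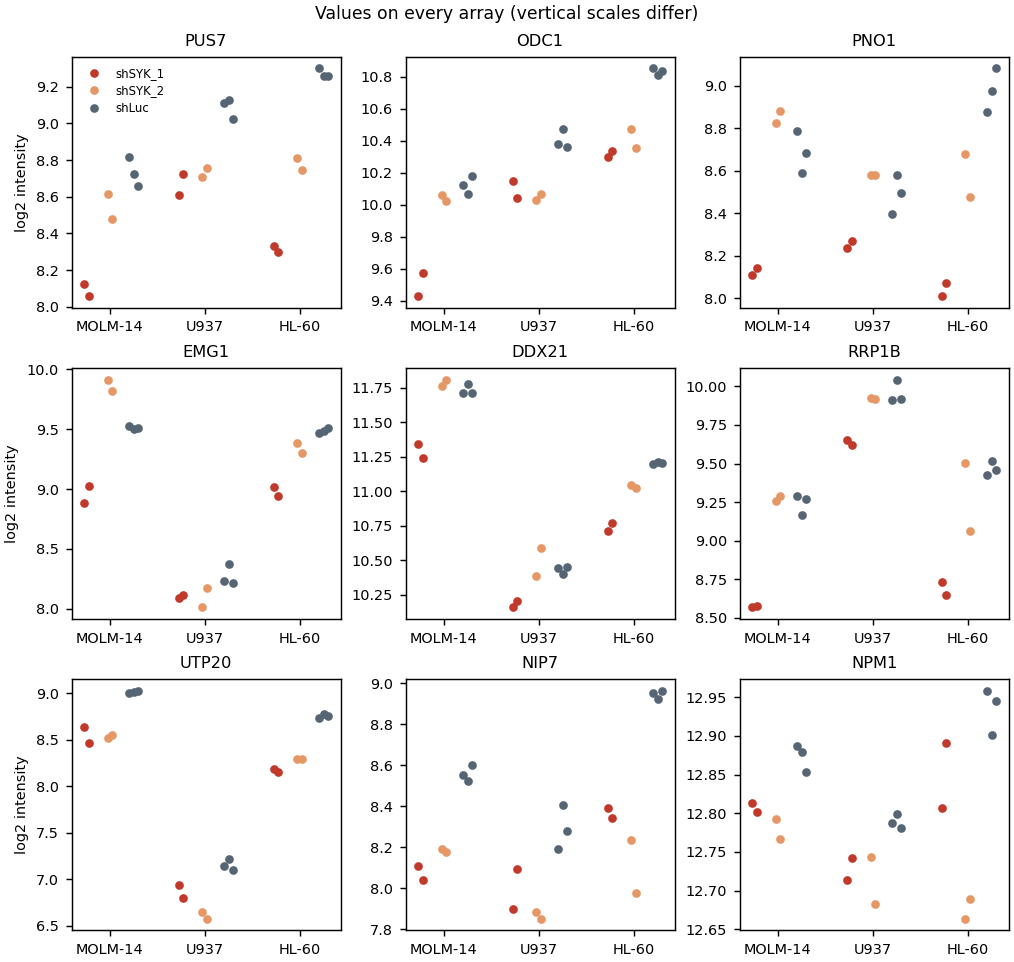
Log2 intensity (vertical axes, which differ in scale) of 9 members on every array, by cell line and hairpin, with 1 point per array. PUS7 and ODC1 are below shLuc with both hairpins, PNO1, EMG1, DDX21 and RRP1B are low mainly with shSYK_1, and UTP20 and NIP7 are low with both.

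Genes that work beside the module were counted from other lists of genes. Of 75 further ribosome assembly factors measured, 50 fell and 3 rose with shSYK_1, and 18 fell and 6 rose with shSYK_2, averaged over the lines (17.4% lower and 18.2% higher, and 14.7% lower and 15.6% higher, over all genes). Their median change was -0.18 with shSYK_1 and -0.03 with shSYK_2. In the difference 38 were higher and 4 lower with shSYK_2 than with shSYK_1 (17.3% and 18.4% over all genes). The strongest shSYK_1 tests were those of RUVBL1, an ATPase of snoRNP assembly (-0.59, limma adjusted p = 1.21e-08), MAK16 (-0.43) and REXO4 (-0.51), with shSYK_2 changes of 0.0007, -0.03 and 0.09. Of 26 RNA polymerase I and III genes, 12 fell and 1 rose with shSYK_1, and 8 fell and 4 rose with shSYK_2, led by POLR3E (-0.53 with shSYK_1 and -0.17 with shSYK_2), GTF3C2 (-0.47 and -0.13) and POLR1G (-0.53 and -0.15). Of 11 RNA exosome genes, which trim ribosomal RNA, 6 fell with shSYK_1 and 4 with shSYK_2, and 0 rose with either. EXOSC5 had the largest of these changes, -0.66 with shSYK_1 (limma adjusted p = 2.09e-09) and -0.12 with shSYK_2, beside EXOSC7 (-0.28 and -0.04) and MTREX (-0.22 and 0.06). When HL-60 shSYK_2 replicate 1 was left out, shSYK_2 falls were 14 of the assembly factors, 7 of the polymerase genes and 2 of the exosome genes, with 1 exosome gene higher, and 41 assembly factors were higher and 2 lower with shSYK_2 than with shSYK_1.

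The ribosomal proteins themselves had small changes, more often upward with shSYK_2. Of 64 measured, 3 fell with shSYK_1 (RPS10, FAU and RPL35A, by 0.09 to 0.10 on the log2 scale) and 0 rose (17.4% lower and 18.2% higher over all genes), while with shSYK_2 0 fell and 20 rose (14.7% lower and 15.6% higher over all genes), with medians of -0.01 and 0.07. With shSYK_2 against shSYK_1, 22 were higher and 0 lower (17.3% and 18.4% over all genes). At an unadjusted p below 0.05, for which no share of all genes was counted, 4 fell and 0 rose with shSYK_1. With shSYK_2 0 fell and 29 rose, and 30 were higher and 0 lower in the difference. RPS10, FAU and RPL35A had mean log2 intensities of 13.34, 12.27 and 12.44. The shLuc medians of the 47 members were 8.54, 8.45 and 8.68 in MOLM-14, U937 and HL-60. Whether such bright probe sets understate a change was not tested. Of 42 translation factors, 13 fell and 9 rose with shSYK_1, and 6 fell and 11 rose with shSYK_2. EIF4A3 (-0.32), EIF4EBP1 (-0.40) and EIF2B3 (-0.34) led with shSYK_1, against -0.06, 0.04 and -0.17 with shSYK_2. Of 46 mitochondrial ribosome genes, 13 fell and 5 rose with shSYK_1, and 16 fell and 4 rose with shSYK_2. MRPL42 (-0.56), MRPL17 (-0.39) and MRPS2 (-0.43) led with shSYK_1, against 0.02, 0.05 and 0.01 with shSYK_2. Without HL-60 shSYK_2 replicate 1, 17 ribosomal proteins rose with shSYK_2, 5 translation factors fell and 12 rose, and 10 mitochondrial ribosome genes fell and 3 rose.

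**Figure D5:**
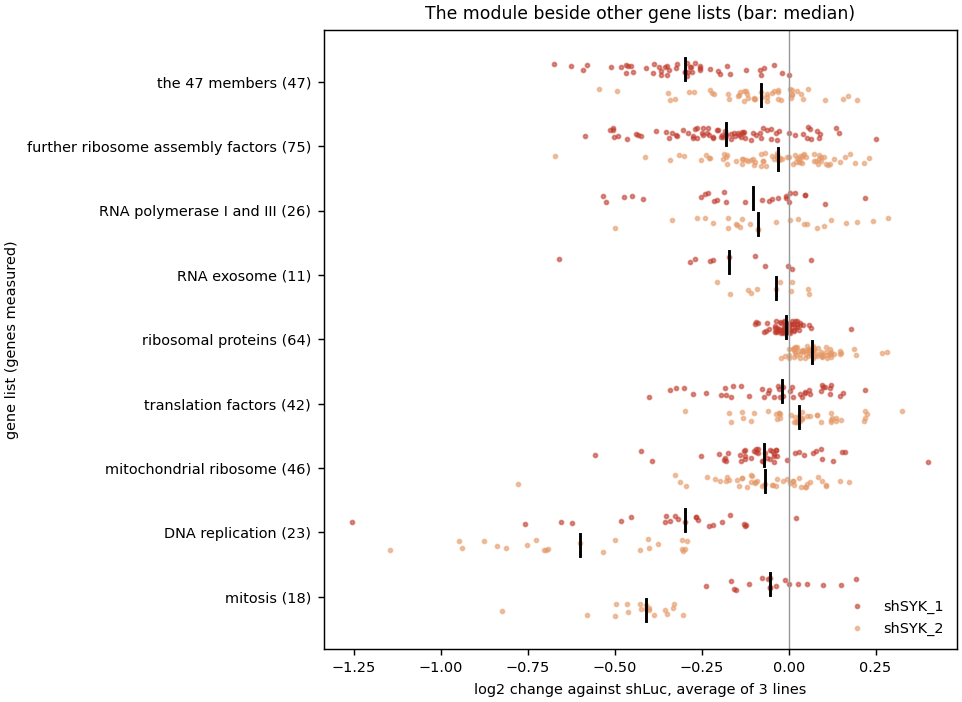
Log2 change against shLuc averaged over the 3 lines (horizontal axis) for the genes of 9 lists, with 1 point per gene, shSYK_1 above shSYK_2 in each row, and a bar at the median. The members and the further assembly factors lie lower with shSYK_1 (medians -0.30 and -0.18) than with shSYK_2 (-0.08 and -0.03), while DNA replication and mitosis genes lie lower with shSYK_2 (-0.60 and -0.41) than with shSYK_1 (-0.30 and -0.05).

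Cell cycle genes were on average lower with shSYK_2 than with shSYK_1, with the largest differences in U937. All 23 DNA replication genes fell with shSYK_2 and 21 with shSYK_1 (14.7% and 17.4% of all genes), at medians of -0.60 and -0.30, and 15 were lower with shSYK_2 than with shSYK_1 while 1, RFC5, was higher (18.4% and 17.3% of all genes). In U937 the median of the DNA replication genes was -0.06 with shSYK_1 and -1.24 with shSYK_2, and 21 were lower with shSYK_2 than with shSYK_1 (11.1% of all genes). In MOLM-14 that count was 1, with 6 higher (12.8% and 13.2% of all genes), and in HL-60 it was 0, with 5 higher (12.6% and 9.59% of all genes). GINS1 changed by -0.62 with shSYK_1 and -1.14 with shSYK_2, RFC5 by -1.25 and -0.95, and RPA2 by -0.76 and -0.94. All 18 mitosis genes fell with shSYK_2, and 3 fell and 2 rose with shSYK_1, and all 18 were lower with shSYK_2 than with shSYK_1. The mitosis count was 18 in U937, 5 in MOLM-14 and 4 in HL-60 (11.1%, 12.8% and 12.6% of all genes). BIRC5 changed by -0.24 with shSYK_1 and -0.46 with shSYK_2, CDK1 by -0.15 and -0.50, and CCNB2 by 0.15 and -0.30. Of 10 myeloid markers, 6 rose and 3 fell with shSYK_1, and 3 rose and 3 fell with shSYK_2 (18.2% higher and 17.4% lower, and 15.6% higher and 14.7% lower, over all genes). ITGAM, the integrin of mature myeloid cells, changed by 1.73 and 0.21, CD14, a monocyte receptor, by 1.08 and 0.60, and AZU1, a granule protein of promyelocytes, by -0.72 and 0.01. The summed level of the 10 markers ran from 11.49 to 12.99 log2 on shSYK_1 arrays, 11.62 to 12.99 on shSYK_2 arrays and 11.71 to 13.26 on shLuc arrays. Leaving out HL-60 shSYK_2 replicate 1, all 23 replication and all 18 mitosis genes fell with shSYK_2, at medians of -0.58 and -0.40, and 14 and 18 were lower with shSYK_2 than with shSYK_1. Of 34 markers of other cell types, 2 fell (NKG7 and BLNK) and 2 rose (CD2 and PECAM1) with shSYK_1, and 1 fell and 4 rose with shSYK_2. PECAM1, an adhesion protein of endothelium that myeloid cells also carry, changed by 0.70 with shSYK_1 (limma adjusted p = 4.01e-09) and 0.34 with shSYK_2, NKG7 by -0.28 and -0.05, and BLNK, a B cell adaptor, by -0.43 and -0.04. The part of the cell cycle and marker changes in those of the module was not tested.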

How the data were processed

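RNA of 3 leukaemia lines was measured on 21 arrays. The deposited values are intensities on a linear scale, which the authors computed by RMA per the submitters' notes on processing, which name no version among the sources used here. RMA corrects background, brings arrays to one distribution, summarises probes and compresses folds. The planned tests assumed log2 values, so log2 was taken from the deposited intensities, with no pseudocount. Of 22277 probe sets, 62 were controls, and those with several gene symbols (568) or none in the annotation used (1923) were left out. Symbols were updated by gene ID through RefSeq (GRCh38.p14), for 19707 of 19724 probe sets with 1 symbol.

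One model with a mean per group was fitted with limma 3.58.1 in R 4.3.3 (12 residual and 4.09 prior degrees of freedom). Contrasts took each hairpin against shLuc and shSYK_2 minus shSYK_1, in each line and averaged, and moderated F tests asked whether a hairpin's effect differed between lines. Tests were two-sided. Both comparisons with shLuc in a line share its 3 shLuc arrays. The p-values cover only how much separate transductions of these lines varied. On data simulated for shSYK_1 averaged over the lines (12165 genes), 97% of 100 genes changed by 0.5 log2 and 55% of 100 changed by 0.25 were called. Only these genes were changed there, whereas 2114 genes fell and 2211 rose in the data. The cut-off set by the adjusted p was thus stricter in the simulation, and its shares do not carry over directly.

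The members and gene lists were chosen with earlier results of these data known. Array values are given for NOP56, FBL, NPM1, NCL, DKC1 and ODC1, for the 5 members with the smallest p in each averaged contrast and for some members called against the common direction. For other lists the 3 genes with the smallest p in the averaged shSYK_1 contrast are named. Promoters are shown for members among the 8 with the smallest p of the hairpin difference that hold CACGTG, at most 4. Alternatives changed the probe set, array scale, gene filter, variance prior, array weights, arrays used, label of the conflicting array, replicate block and minimum change.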

Additional observations from a re-analysis of the deposited data

Results flagged for a closer look

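Each of the members below had a hairpin effect that differed between the 3 lines by limma's moderated F test, and each is given with its log2 changes (in the order MOLM-14, U937, HL-60) and the adjusted p of that test. With shSYK_1 the test called 12 of 47 members, against 15.2% of all genes, and with shSYK_2 it called 20, against 15.0% of all genes. With a replicate block it called 3 and 4 members, and the share over all genes was not counted there. The shSYK_2 count was 11 without HL-60 shSYK_2 replicate 1, of which 10 were among the 20 (UTP14A, EMG1, DDX10, TSR1, PNO1, BOP1, WDR12, NOP16, POLR1C and TCOF1), and the HL-60 values with shSYK_2 below include that array. The shSYK_1 count was 7 without HL-60 shSYK_1 replicate 1.

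With shSYK_1, 8 of the 12 had negative values in every line and the lowest in HL-60. These were DDX10 (-0.24, -0.15 and -0.64, 0.00093), PNO1 (-0.56, -0.24 and -0.94, 0.00181), PUS7 (-0.64, -0.42 and -0.96, 0.00332), BOP1 (-0.11, -0.17 and -0.61, 0.015), POLR1C (-0.30, -0.15 and -0.60, 0.0178), MRTO4 (-0.33, -0.22 and -0.56, 0.0335), NOP16 (-0.25, -0.26 and -0.59, 0.0442) and RRP9 (-0.06, -0.08 and -0.45, 0.04). U937 had the value nearest to 0 for TSR1 (-0.81, -0.25 and -0.81, 0.00859), EMG1 (-0.56, -0.17 and -0.51, 0.0237) and DDX56 (-0.36, 0.01 and -0.48, 0.0215). A negative value in HL-60 alone was seen for IMP3 (0.09, 0.02 and -0.35, 0.0297).

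With shSYK_2, many of the 20 were higher than shLuc in MOLM-14 and lower in HL-60. Those with positive values in MOLM-14 and U937 and a negative value in HL-60 were POLR1C (0.20, 0.04 and -0.46, 0.00109), DDX10 (0.27, 0.03 and -0.24, 0.00121), UTP14A (0.15, 0.29 and -0.54, 0.0021), PNO1 (0.17, 0.09 and -0.40, 0.00526), HEATR1 (0.08, 0.08 and -0.30, 0.015), RRS1 (0.13, 0.03 and -0.40, 0.0174) and GNL2 (0.33, 0.11 and -0.13, 0.0423). A positive value in MOLM-14 alone was seen for EMG1 (0.36, -0.18 and -0.15, 0.00219), WDR12 (0.20, -0.25 and -0.25, 0.00312), BOP1 (0.10, -0.27 and -0.49, 0.00912), TSR1 (0.09, -0.21 and -0.52, 0.0139), NOP16 (0.16, -0.17 and -0.27, 0.0201), RRP12 (0.16, -0.17 and -0.37, 0.0248), IMP4 (0.23, -0.04 and -0.18, 0.0328) and BYSL (0.28, -0.02 and -0.14, 0.0369). Values were negative in all 3 lines for TCOF1 (-0.03, -0.57 and -0.38, 0.00437), NIP7 (-0.37, -0.42 and -0.84, 0.0187), GAR1 (-0.12, -0.30 and -0.60, 0.0401), ODC1 (-0.08, -0.35 and -0.42, 0.0421) and TBL3 (-0.03, -0.17 and -0.62, 0.0438), of which TCOF1 was lowest in U937 and the others in HL-60. The cause of these line differences was not tested.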

How the results depend on the processing

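Over all settings 35 to 41 members fell with shSYK_1 (40 as reported), and 33 to 37 were higher with shSYK_2 than with shSYK_1 (35) when any 1 array was left out. Requiring a change of at least 0.25 log2 left 7 averaged shSYK_2 falls and 20 higher differences. Leaving out 1 array in turn gave 4 to 21 members lower with shSYK_1 in U937, 14 to 27 lower with shSYK_2 in HL-60, 1 to 9 higher in the U937 hairpin difference and 11 to 21 in that of HL-60, where without HL-60 shSYK_1 replicate 1 the count was 11. The same gave 7 to 18 line-dependent members with shSYK_1 and 11 to 28 with shSYK_2. For shSYK_2 these were 13 without MOLM-14 shLuc replicate 2 or MOLM-14 shSYK_2 replicate 2, and 12 without MOLM-14 shSYK_2 replicate 1. With arrays of a line alone, 10 (U937, shSYK_1) and 14 (HL-60, shSYK_2) members fell and 7 were higher in the HL-60 difference. Array weights gave 14 (HL-60, shSYK_2) and 10 (HL-60 difference). With the conflicting array (replicate 1 of HL-60 shSYK_2) moved to shSYK_1, HL-60 counts were 6 (shSYK_2 lower) and 1 (difference higher), the U937 difference 4, and line-dependent members 4 (shSYK_1) and 5 (shSYK_2). A trended and robust prior gave 4 lower with shSYK_2 in MOLM-14, 11 higher in the U937 difference and 21 line-dependent members with shSYK_1, and centring each array gave 24 of the last while moving the median of all genes by at most 0.08. The replicate block was set on replicate numbers, whose arrays had correlations of deviations from -0.21 to 0.09 over 18 pairs. With 2 arrays in a group the deviations mirror each other, so these pairs are not all separate. The block gave 1 (MOLM-14, shSYK_2 lower), 4 (U937, shSYK_1 lower), 16 (HL-60, shSYK_2 lower) and 4 (U937 difference). Line-dependent members were then 3 with shSYK_1 and 4 with shSYK_2, and the averaged counts were 39 (shSYK_1), 11 (shSYK_2) and 34 (difference). The cause of these shifts was not tested, beyond fewer arrays in the fits that leave arrays out. The named genes counted next are NOP56, FBL, NPM1, NCL, DKC1, ODC1, MYC, SYK and the 5 members with the smallest p in each averaged contrast. Many were thus picked for a small p, and only averaged contrasts were counted. Calls lost by other members, such as NHP2, PWP2, MYBBP1A and NOP14 above, are not among these values. Of 1512 values of named genes under alternatives, 1480 kept direction and side, 2 lost the call (NOP56 and NPM1 with shSYK_2, given above) and 8 gained it (NPM1 with shSYK_1 in 3 and in the difference in 2, NOP56 and NIP7 in the difference, and RRP1B with shSYK_2), and 22 changed sign. The sign changes with shSYK_2 averaged over the lines were FBL -0.0043 (block), -0.0073 to 0.0256 (1 array out), NCL -0.0005 (array placed in shSYK_1) and -0.0008 to 0.0221 (1 array out), DKC1 -0.14 (mean of probe sets, limma adjusted p = 9.52e-04) and -0.0119 to 0.0215 (1 array out), PNO1 0.0071 (mean of probe sets), EMG1 -0.0166 to 0.0376 and DDX21 -0.0552 to 0.0122 (1 array out), and RRP1B 0.0114 (that array out or placed in shSYK_1). In the hairpin difference, NPM1 was 0.10 (limma adjusted p = 0.0224) and TCOF1 0.0499 with the mean of probe sets, and TCOF1 0.0043 with the array placed in shSYK_1. Of the 24 other probe sets of 17 members, compared after the data had been seen, 21 had the sign of the used one with shSYK_1 and 16 in the difference.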
